A study of Mus musculus with 4 samples.

Results

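Star strands, the passenger strands of microRNA (miRNA) duplexes, were examined in the livers of wild type (WT) and Clock mutant mice. They were the entries of the mouse miRNA array whose name starts with mmu- and ends in an asterisk, without the repeat-like miR-297, miR-466, miR-467 and miR-669 families. 111 of the 611 mouse miRNA entries met this rule, and another 4 star entries belonged to the families left out. A total of 17 star strands were called detected on at least 1 of the 4 arrays, which was 15.3% of the 111, against 31.9% of all mouse entries and 35.7% of the 496 entries without an asterisk.

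A miRNA hairpin is cut by Drosha and Dicer to a short duplex. One strand, the guide, is usually kept in an Argonaute protein and directs repression of mRNAs through its seed, while the other, the star or passenger strand, is mostly released and degraded. Both strands of 1 hairpin come from 1 transcript, so their ratio depends on how the strands are chosen and how long each lasts. For some hairpins both strands are loaded, and some guides can come from more than 1 hairpin. CLOCK is the transcription factor that with BMAL1 drives the circadian genes of the liver, and the ClockΔ19 allele yields a protein that still binds its partner but activates transcription poorly.

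The study compared liver miRNA of ClockΔ19 mutant mice with that of WT mice in the light phase (ZT2) and in the dark phase (ZT14), where ZT counts hours after lights on. Each of the 4 conditions was 1 array hybridised with RNA of 3 livers mixed together, so no condition had a replicate. Only male mice were used, 6 to 8 weeks old, housed singly with food at will under 12 h of light a day for 2 weeks and killed at 9 h (ZT2) or 21 h (ZT14), with lights on at 7 h. The mutant carries its allele in every cell of the body, and the genetic background of both genotypes is not given in the sources used here. Their number limits the precision, and genotypes cannot be tested against each other within a time point. The spread given beside a ratio is therefore the spot SD, which covers the array and not the animals. It is the SD of the replicate spots of a probe on 1 array, put on the log2 scale. For a ratio or shift it is the root of the summed squares over the arrays and strands compared. It was not divided by the number of spots, so it is not the standard error of an averaged signal. All 3 hepatocyte markers (miR-122, miR-192 and miR-194) were detected on the 4 arrays. The arrays differed in brightness: their 75th percentiles, over those 123 miRNAs that each array detected, differed 1.58-fold and was lowest on the WT ZT14 array. Against the WT ZT2 array, the median log2 signal before scaling was -0.10 for mutant ZT2, -0.79 for WT ZT14 and -0.20 for mutant ZT14. Levels are given below as signals before scaling (mean background-subtracted intensity over the spots and probes of an entry), and ratios between arrays after division by that percentile.

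The sequences of 15 of the 17 detected star strands were found in RefSeq under the arm names now in use, 12 from the 3p arm and 3 from the 5p arm of the hairpin. Those of miR-199b* and miR-378* were not matched. The sequences below, in RNA letters from 5′ to 3′ with the seed (bases 2 to 8) in capitals, are those on which the results turn: miR-30a* and miR-30e*, which share a seed, let-7b* and let-7f*, which share another, and the brightest and most changed of the others.
miR-30a* (miR-30a-3p): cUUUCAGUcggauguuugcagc
miR-30e* (miR-30e-3p): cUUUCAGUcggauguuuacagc
miR-30a (guide, miR-30a-5p): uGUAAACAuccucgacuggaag
let-7b* (let-7b-3p): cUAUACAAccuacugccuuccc
let-7f* (let-7f-1-3p): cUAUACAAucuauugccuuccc
let-7b (guide, let-7b-5p): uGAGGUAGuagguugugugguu
miR-22* (miR-22-5p): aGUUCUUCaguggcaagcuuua
miR-140* (miR-140-3p): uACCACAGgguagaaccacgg
miR-877* (miR-877-3p): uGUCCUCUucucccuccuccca
miR-483* (miR-483-3p): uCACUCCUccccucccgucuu

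In the RefSeq annotation of GRCm38.p6, miR-30a* lies at chr1:23272315-23272336 on the plus strand and miR-30e* at chr4:120772618-120772639 on the minus strand. let-7b* lies at chr15:85707379-85707400 (plus), let-7f* at chr13:48537833-48537854 (minus), miR-22* at chr11:75463734-75463755 (plus) and miR-140* at chr8:107551288-107551308 (plus). miR-877* lies at chr17:35960731-35960752 (minus), and miR-483* at chr7:142654932-142654952 (minus). Counted from the 5′ end, miR-30a* and miR-30e* differ by the single substitution G18A, and let-7b* and let-7f* by C9U and C13U. The seed of miR-30a* and miR-30e* is thus shared, as is that of let-7b* and let-7f*, while 13 different seeds occur among the 15 star strands. Whether the probes of such near-identical strands each bind both was not tested. Over the 14 pairs with both sequences matched, 5 star strands and 8 guides began with U, and the median GC content was 50% and 45.5%.

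Of the 111 star strands, 17 were called detected on the WT ZT2 array, 14 on mutant ZT2, 11 on WT ZT14 and 12 on mutant ZT14. The detected share of all 611 mouse entries stood in the same order, 31.6%, 26.4%, 22.6% and 23.2%. In whole liver, fewer cells of a type and less RNA per cell cannot be told apart. 9 star strands were detected on all 4 arrays (miR-30a*, miR-30e*, miR-30c-2*, miR-22*, miR-140*, miR-199b*, miR-378*, miR-877* and let-7b*), 5 on 3 arrays, 3 on 1 array and 94 on none. With a stricter call, over 50% of the spots well above background, 7, 4, 3 and 4 star strands remained on WT ZT2, mutant ZT2, WT ZT14 and mutant ZT14 (6.31%, 3.60%, 2.70% and 3.60% of the 111), against 20.6%, 17.02%, 15.5% and 15.9% of all 611 mouse entries. miR-22* and miR-30a* passed this call on every array.

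Among the miR-30 family, whose guides are abundant in liver, 3 of 5 star strands were detected. miR-30a* had the highest signal of all star strands on every array, 99.5 on WT ZT2, 90.1 on mutant ZT2, 57.8 on WT ZT14 and 101 on mutant ZT14. miR-30e* had signals of 46.4, 40.8, 28.1 and 53.3 in the same order of arrays. miR-30c-2*, which was matched to the guide miR-30c without its locus number, had 21.1, 16.6, 12.0 and 18.4. In each of these star strands the WT ZT14 array, the dimmest, was lowest.

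miR-22*, the passenger of a liver-abundant guide, had signals of 82.4 on WT ZT2, 80.5 on mutant ZT2, 46.5 on WT ZT14 and 68.0 on mutant ZT14. miR-140*, from a hairpin in an intron of Wwp2 known from cartilage, had 69.1, 66.5, 36.8 and 63.6. miR-199b*, from a hairpin known from mesenchymal and stellate cells, had 39.7, 29.6, 19.5 and 35.3. The WT ZT14 array was again lowest in the last 3. miR-378*, whose hairpin lies in an intron of the metabolic coactivator gene Ppargc1b, varied less, with 20.005, 17.8, 15.3 and 17.4.

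let-7 guides repress growth and stem cell genes, and 2 of the 7 let-7 star strands were detected although all 7 had a detected guide. let-7b* had nearly constant signals of 15.5 on WT ZT2, 15.3 on mutant ZT2, 14.3 on WT ZT14 and 13.96 on mutant ZT14. let-7f* had 16.0, 13.6, 14.98 and 14.6, the last of which was not called detected. Unlike the star strands of miR-30, neither was dimmer on the WT ZT14 array by the ratio of array brightness: the highest over the lowest array was 1.11-fold for let-7b*, against 1.83-fold for its guide and a median of 1.83-fold over the 123 miRNAs. 2 of these 123 stayed under 1.2-fold, and let-7b* was the only star strand of the 9 among them.

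5 star strands (miR-877*, miR-483*, miR-17*, miR-191* and miR-135a*) were detected while the guide of the same name was not detected on any array. miR-191* and miR-135a*, called detected on WT ZT2 only, are described further below. miR-877*, from a mirtron (a hairpin that is itself an intron, here of Abcf1), had signals of 42.2 on WT ZT2, 33.4 on mutant ZT2, 27.1 on WT ZT14 and 15.9 on mutant ZT14, whereas miR-877 had -3.51, -6.70, -6.78 and -5.48. miR-483*, from an intron of the growth factor gene Igf2, had 19.1, 13.6, 14.2 and 9.74, the last not detected, and miR-483 had 6.88, 2.66, -1.36 and 1.79. miR-17*, from the Myc-regulated miR-17-92 cluster, had 18.8, 14.7, 7.35 and 18.3 and was not detected on WT ZT14, where miR-17 had -2.48 and at most 2.48 elsewhere. In miR-877*, miR-483* and miR-17* the star entry was the brighter one on each array. A probe can be brighter than another for equal RNA, so such a difference does not give the amounts of the strands.

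The remaining star strands were called detected on 3 arrays or on 1. miR-31* had signals of 24.3 on WT ZT2, 17.7 on mutant ZT2, 9.90 on WT ZT14 (not detected) and 18.2 on mutant ZT14, and miR-29c*, the passenger of a repressor of collagen genes, had 13.1, 11.7, 9.97 (not detected) and 14.3. miR-191* was called detected only on WT ZT2, at 12.7, with 10.8, 11.7 and 11.6 on the others. miR-29b* was called only there too, at 6.43 against 1.19, 5.92 and 7.51 on mutant ZT2, WT ZT14 and mutant ZT14, and so was miR-135a*, at 4.09 against -3.46, -1.33 and -0.37. The calls of miR-29b* and miR-191* thus do not separate the signals, since miR-29b* was higher on mutant ZT14 than on the array where it was called. The signals of miR-29b* and miR-135a* on WT ZT2 were under the average of the negative controls there, 6.60. On the same array 3 of 7 muscle markers were detected, with a summed signal of 167, against none and 1.49 to 5.57 on the others (miR-206, miR-208a, miR-208b and miR-499 were detected on no array), and leukocyte and epithelial markers were also highest there, with summed scaled levels of 1.22 against 0.63 to 0.79 and of 0.24 against 0.10 to 0.16. The leukocyte markers miR-150 and miR-155 and the epithelial marker miR-200c were detected on no array. Hepatocyte, red blood cell and endothelial markers were instead highest on mutant ZT2, with summed scaled levels of 122, 5.94 and 4.25. On WT ZT2 these were 107, 3.34 and 3.91. The part of any of these cell types in the 3 calls was not tested.

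**Figure D1:**
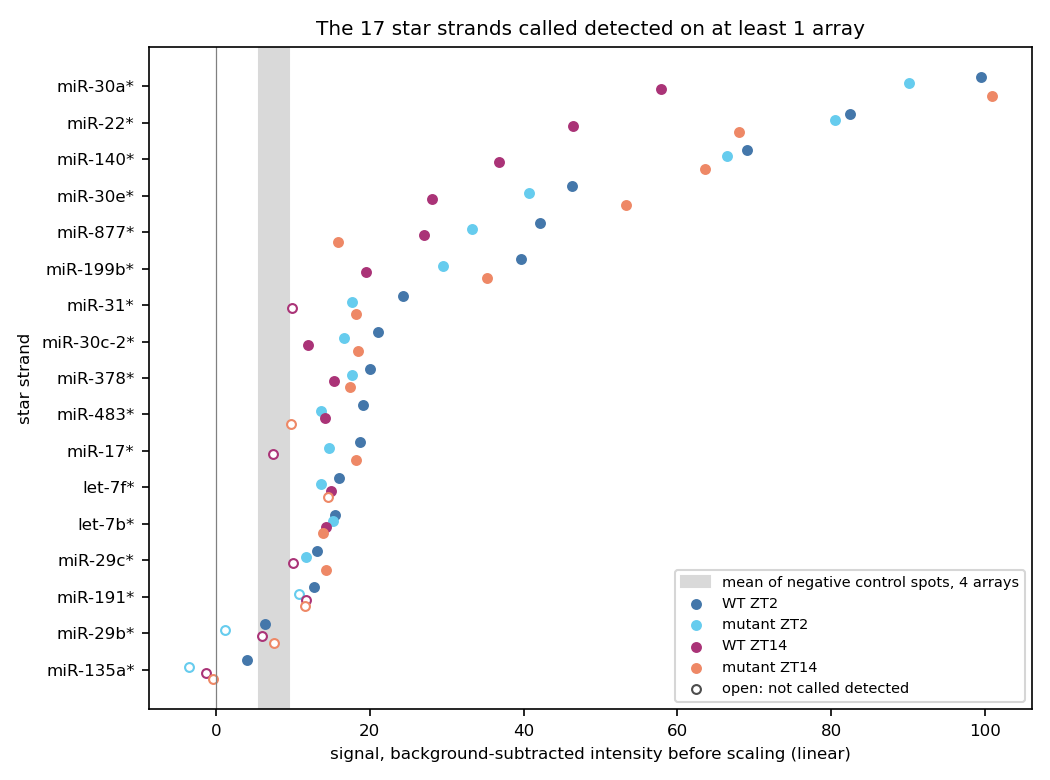
Signal before scaling (linear axis, background-subtracted intensity) of the 17 star strands detected on at least 1 array, with 1 point for each array, open where the star strand was not called detected, and a grey band over the range of the 4 negative control means. miR-30a* reaches 101, the WT ZT14 points lie lowest in most of the bright star strands, and the let-7b* points lie together near 15.

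94 star strands were detected on no array, with no signal above 8.02. A bright guide did not go with a detected star strand in every case. 59 star strands had a detected guide, and 11 of these star strands were detected (18.6%), against 5 of the 50 with an undetected guide (10%). 2 star strands, miR-125b* (not detected) and miR-199b*, had no entry of the same name without the asterisk. The median guide signal was 780 for detected and 132 for undetected star strands. Of the 10 brightest guides, 4 had a detected star strand (miR-22*, let-7f*, let-7b* and miR-30a*). miR-21 was the brightest guide with a mean signal of 11676, and miR-21* had -0.62 to 1.37. The star strands of let-7a, let-7g, miR-29a, miR-148a and let-7c (let-7c-1*, matched without its locus number) were not detected either, with signals between -7.50 and 5.35.

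By family or cluster, 2 of 3 miR-29 star strands, 1 of 8 of the miR-17-92 cluster and its paralogues and 0 of 4 of the miR-23/24/27 clusters were detected, although the guides of the last were detected in all 4 cases. None of the 13 star strands of the imprinted Dlk1-Dio3 cluster was detected, and neither was any of their guides. The 6 star strands of embryonic stem cell clusters, the 4 of the epithelial miR-200 family and the 4 neuronal ones were also undetected, with guides detected in 1, 3 and 1 of these cases. These lists were set with earlier results of these data known.

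The ratio of star to guide signal on the same array needs no scaling between arrays where both signals follow the brightness of the array. It was followed in 11 pairs, 7 of them on all 4 arrays. Because it compares the brightness of different probes, its size is not the ratio of the strands, and only its shift between arrays is read. The RefSeq names of let-7f*, miR-29b* and miR-30c-2* carry a locus number and those of their guides do not. These guide entries can thus hold RNA of another locus, and that part was not tested. The star signal came closest to that of the guide in miR-140*, at 79.1% on WT ZT2, 81.8% on mutant ZT2, 73.9% on WT ZT14 and 74.98% on mutant ZT14. With the brightest probe of each strand in place of the mean over probes the order turned, and miR-140* was the brighter strand on every array, by log2 0.16, 0.19, 0.08 and 0.015. The share was lowest in let-7f*, at 0.344%, 0.304% and 0.568% on WT ZT2, mutant ZT2 and WT ZT14. Over the arrays the share lay at 18.5 to 20.8% in miR-31*, 10.1 to 11.2% in miR-378*, 9.15 to 13.9% in miR-30e* and 6.27 to 7.99% in miR-30a*. It lay at 1.63 to 1.98% in miR-30c-2*, 1.36 to 1.53% in miR-22*, 1.32 to 1.99% in miR-29c* and 0.84 to 1.44% in let-7b*, and was 0.857% in miR-29b* on WT ZT2. miR-199b* has no such ratio here, since the array lists miR-199b under the entry miR-199a-3p, whose signal was 183, 179, 99.98 and 197.

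**Figure D2:**
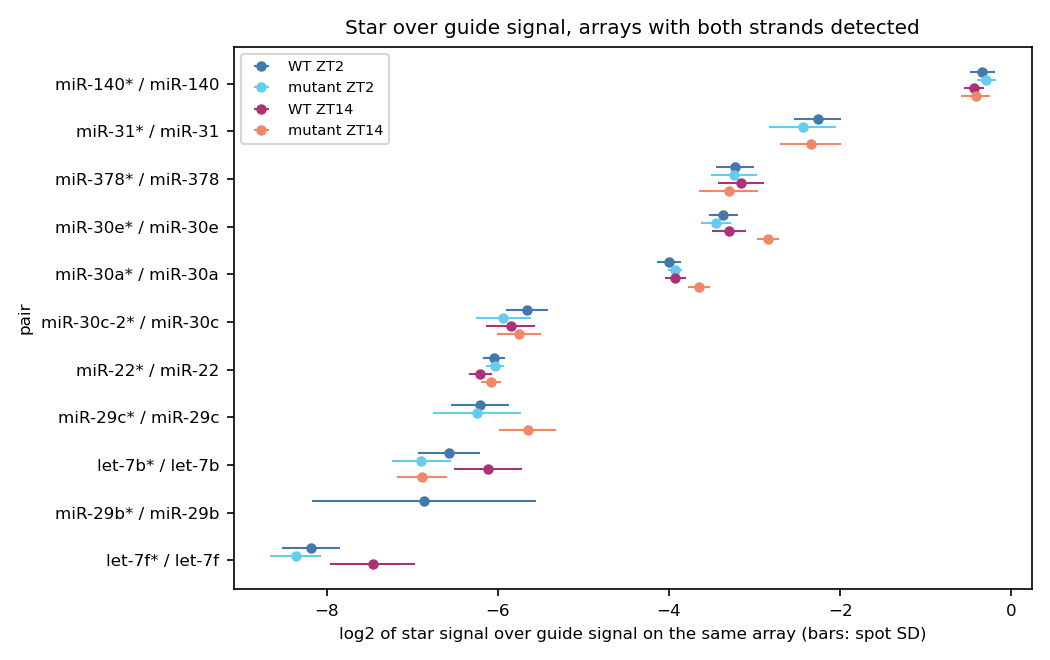
Log2 of the star signal over the guide signal on the same array (horizontal axis) for the 11 pairs, with a point for each array on which both strands were detected and bars for the spot SD. The ratios span from -8.36 (let-7f*) to -0.29 (miR-140*), and most pairs keep their place on all arrays, while the mutant ZT14 points of miR-30a* and miR-30e* lie to the right of the other 3.

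Between genotypes the ratio moved little at ZT2. None of 10 pairs shifted by more than its spot SD, with log2 shifts (mutant minus WT) from -0.32 to 0.06 and a median size of 0.07. At ZT14, 3 of 7 pairs did. The star over guide ratio was higher in the mutant for miR-30e*, by log2 0.45 (spot SD 0.23), and for miR-30a*, by 0.28 (spot SD 0.18). It was lower for let-7b*, by -0.77 (spot SD 0.49). The let-7b* signal itself was 14.3 in WT and 13.96 in the mutant, while that of let-7b was 993 and 1653. The negative control means of these arrays were 9.53 and 9.27.

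From ZT2 to ZT14, the ratio of miR-30e* went from 9.15% to 13.9% in the mutant, a log2 shift of 0.61 (spot SD 0.22), and that of miR-30a* from 6.56% to 7.99%, a shift of 0.28 (spot SD 0.15). These shifts share the mutant ZT14 array with the genotype shifts above. In WT the corresponding shifts were both 0.07 (spot SD 0.26 for miR-30e* and 0.19 for miR-30a*), and the difference between genotypes was not tested. let-7f* shifted by 0.72 (spot SD 0.60) in WT. With the mean of the negative controls subtracted, the shift of let-7f* became 0.03, whereas the genotype shifts at ZT14 became 0.76 for miR-30e*, 0.40 for miR-30a* and -0.77 for let-7b*. With the same subtraction the genotype shift of miR-30c-2* at ZT14 went from 0.10 (spot SD 0.39) to 1.38, and its time shift in WT from -0.19 (spot SD 0.38) to -1.93. With normexp background correction, which adds an offset of 50 to every spot, the genotype shifts at ZT14 were 0.01 for miR-30e* and -0.01 for miR-30a*. Both were within their spot SD, while let-7b* stayed beyond its own, at -0.57 (spot SD 0.49). These spot SDs are those of the signals without this correction. The time shifts were then 0.39 for miR-30e* and 0.38 for miR-30a* in WT, against 0.38 and 0.26 in the mutant. For comparison, the entries named 5p and 3p of 1 hairpin shifted by a median size of 0.10 at ZT2 (7 pairs) and 0.13 at ZT14 (2 pairs) between genotypes, and 1 pair lay beyond its spot SD at each time.

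In the comparison of the mutant with WT at ZT2, no star strand was at least 2-fold higher and 1 was at least 2-fold lower, where 8.25% of the 194 miRNAs detected on at least 1 of the 2 arrays were lower and 0% higher. It was miR-29b*, detected in WT only, with signals of 6.43 and 1.19 and a bound of at least 2.50-fold lower. With the negative control mean as the lowest floor, the bound was 1.07-fold. Of the 14 star strands detected on both arrays, 11 had a ratio below 0 and 3 above, the median log2 ratio was -0.12 against -0.07 over all 160 miRNAs detected on both, and the extremes were miR-483* at -0.39 (spot SD 0.61) and let-7b* at 0.07 (spot SD 0.48). 1 of the 14, miR-199b* at -0.33 (spot SD 0.25), lay beyond its spot SD, as did 52.5% of all miRNAs.

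At ZT14, 2 star strands were at least 2-fold lower in the mutant and none higher, where 13.4% of 157 miRNAs were lower and 0% higher. miR-877* went from 27.1 in WT to 15.9 in the mutant in signal while the mutant array was the brighter one, and its log2 ratio was -1.43 (spot SD 0.32), or 2.69-fold lower. All 4 of its probes were lower, by log2 -1.31 to -1.57. On the same scale its ratio at ZT2 was -0.25 (spot SD 0.25), with all 4 probes below 0. The other was miR-483*, at 14.2 in WT and 9.74 (not detected) in the mutant, with a bound of at least 2.29-fold lower. Without scaling the log2 ratios at ZT14 were -0.77 for miR-877* and -0.54 for miR-483*, both under 2-fold.

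The other star strands moved less at ZT14, and 6 of the 9 detected on both arrays lay beyond their spot SD, as did 61.8% of all miRNAs. The median of these 9, miR-877* included, was -0.03, the same as over all 123 miRNAs. miR-30e* was at 0.27 (spot SD 0.22), miR-30a* at 0.15 (spot SD 0.14) and miR-140* at 0.13 (spot SD 0.13), each just beyond its spot SD. let-7b* was at -0.69 (spot SD 0.49) and miR-378* at -0.47 (spot SD 0.43), although the signal of let-7b* before scaling was 14.3 in WT and 13.96 in the mutant. After scaling, the guides lay on the other side of 0 from miR-30e* and miR-30a*, with -0.19 (spot SD 0.08) for miR-30e and -0.13 (spot SD 0.11) for miR-30a. Before scaling both strands were higher in the mutant, by log2 0.92 for miR-30e* and 0.80 for miR-30a*, while the guide signals, WT first, were 277 and 383 for miR-30e and 880 and 1263 for miR-30a. miR-17* was not detected in WT and had a bound of at least 1.58-fold higher (log2 spot SD 1.09). With the negative control mean as the lowest floor, that bound was 1.22-fold. let-7f*, not detected in the mutant, had a bound of at least 1.62-fold lower. Its signals before scaling were 14.98 in WT and 14.6 in the mutant, a log2 ratio of -0.04. Of the guides that share a name with a star strand, 5 of 55 were at least 2-fold lower at ZT2 and 2 of 51 at ZT14, and none was higher.

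**Figure D3:**
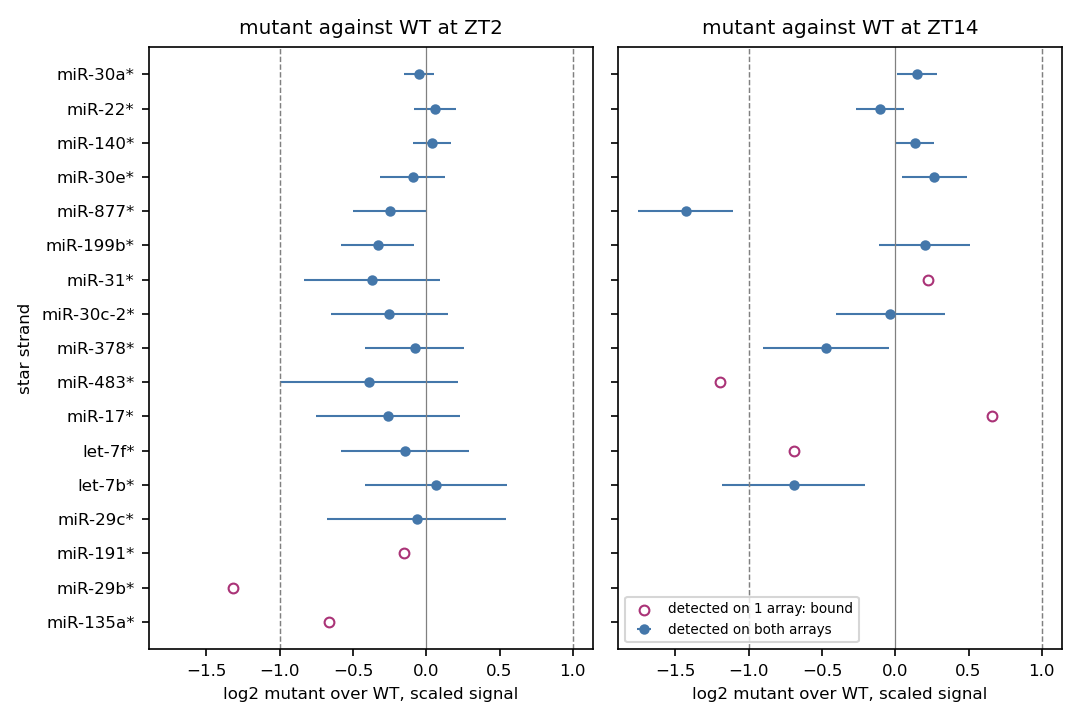
Log2 ratio of mutant over WT scaled signal (horizontal axis) of the detected star strands at ZT2 and ZT14, with the spot SD as bars for those detected on both arrays, open points for bounds, and dashed lines at 2-fold. miR-877* at ZT14 (-1.43) is the one ratio measured on both arrays that lies past 2-fold.

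Between ZT2 and ZT14 no star strand of WT liver passed 2-fold, where 6.7% of 194 miRNAs were at least 2-fold lower and 1.03% higher. Over the 11 star strands detected on both arrays the median log2 ratio was -0.06, against -0.12 over all 137, with miR-199b* lowest at -0.37 (spot SD 0.26) and let-7f* highest at 0.56 (spot SD 0.59). let-7b* was at 0.54 (spot SD 0.52) and miR-140* at -0.25 (spot SD 0.13). In the mutant, miR-877* was 2.24-fold lower at ZT14, with a log2 ratio of -1.16 (spot SD 0.32) and all 4 probes between -1.47 and -0.90, where 13.5% of 163 miRNAs were at least 2-fold lower and 0% higher. In WT its ratio was 0.02 (spot SD 0.25), and the difference between genotypes was not tested. Both of its changes past 2-fold share the mutant ZT14 array. The median over the 12 star strands measured on both mutant arrays was 0.01, against -0.16 over 140 miRNAs, with miR-30e* at 0.30 (spot SD 0.21) and miR-22* at -0.33 (spot SD 0.14).

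**Figure D4:**
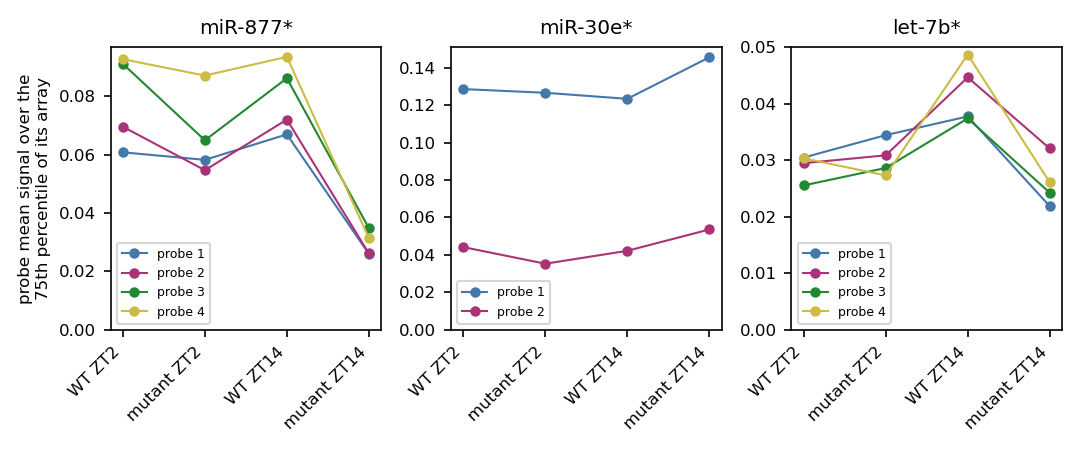
Mean signal of each probe of miR-877*, miR-30e* and let-7b* divided by the 75th percentile of its array (vertical axes from 0), on the 4 arrays, with lines joining the values of 1 probe. The 4 probes of miR-877* are all lowest on mutant ZT14, both probes of miR-30e* are highest there, and the probes of let-7b* are highest on WT ZT14, the dimmest array.

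A fit by limma with both genotype and time in the model, over the 123 miRNAs detected on all 4 arrays, with 1 residual degree of freedom, called no miRNA at an adjusted p under 0.05 (0% of 123 for either term). The smallest adjusted p was 0.220 for genotype and 0.195 for time, and 10 and 12 miRNAs had an unadjusted p under 0.05, none of them among the 9 star strands. miR-877* had the largest genotype difference of the 9, log2 -0.84 (SE 0.32, limma adjusted p = 0.422). Without the mutant ZT2 array, where genotype alone was fitted, its difference was -1.42. With all 4 arrays, let-7b* was at -0.31 (SE 0.23) and miR-378* at -0.28 (SE 0.16). For time the largest was again miR-877*, at -0.57 (SE 0.32, limma adjusted p = 0.525). Without the WT ZT14 array, with time alone in the fit, its difference was -1.29. Each of these fits leaves 1 array in an arm (mutant in the first, ZT14 in the second), which is assumed to vary like the 2 of the other arm. In both it is the mutant ZT14 array, so the difference from the other arm mixes genotype and time. Without the mutant ZT14 array the difference of miR-877* was -0.26 for genotype and 0.14 for time, so both larger differences rest on that 1 array.

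The scanner files also hold a summed signal for each entry, the total gene signal, and for star strands this column often held more than their own signal. Of the 54 values of detected star strands, 28 (51.9%) exceeded the sum of all the entry's own probes by more than 1, against 24.6% of the 634 values of detected mouse entries. In each of the 28 the value equalled, within 0.0085, the part of some own probes plus the total of the detected entry just before it in name order. That entry was the guide of the same name in 17. let-7f* on mutant ZT2 was listed at 6030, of which 6024 was the total of let-7f and 5.85 came from its own probes. let-7b* was listed at 16.4 on WT ZT2, 5.82 on mutant ZT2, 1409 on WT ZT14 and 2359 on mutant ZT14, the last 2 with the total of let-7b added (1398 and 2353). miR-877* was listed at 124 on mutant ZT14, of which 112 was the total of miR-805 and 12.6 its own. miR-17*, whose own guide was undetected, received the total of miR-16 on the 3 arrays that called it. 14 of the 17 star strands had at least 1 such value, and miR-22*, miR-30a* and miR-30e* had none, so the total gene signal was not used for the results above. The same was found for all 156 such values among mouse entries.

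**Figure D5:**
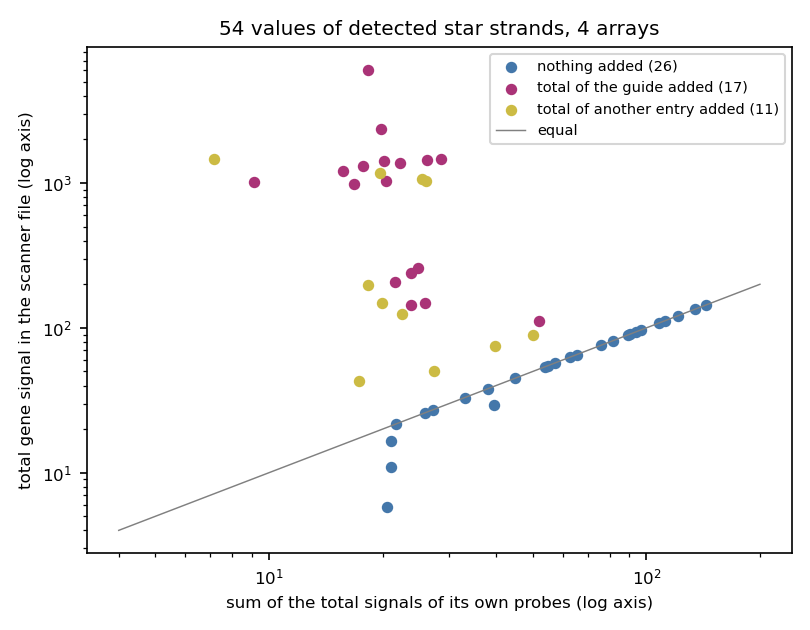
Total gene signal in the scanner files (vertical, log axis) against the sum of the total signals of the entry's own probes (horizontal, log axis) for the 54 values of detected star strands, coloured by what was added, with a line at equality. The 17 values with the guide added and the 11 with another entry added lie above the line, up to 6030, while the 26 others lie on or below it.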

How the data were processed

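Liver RNA of 3 mice per condition was pooled and hybridised to 1-colour (Cy3) Agilent mouse miRNA arrays. The authors deposited the scanner output of Agilent Feature Extraction 10.7.1.1, with background-subtracted intensity per spot and detection flags, and a table of log2 values per entry, taken relative to a different offset at ZT2 and ZT14. Intensities without outlier spots were averaged on the linear scale over the spots of a probe and then over probes, since values below 0 have no log, and were divided by a 75th percentile, taken over those 123 miRNAs that were detected on every array, before log2 was taken. An entry detected on 1 of 2 arrays got a bound, against the higher of the lowest detected signal of the other array and its own signal there. The call was 2-fold, as in the study's methods. All arrays were on 1 slide.

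limma 3.58.1 in R 4.3.3 was fitted to all 123 with Benjamini-Hochberg adjustment. The code was run on simulated data, where it called 30 of 30 changed miRNAs and 1 unchanged. How well the fit finds differences of the size and spread seen on these 4 arrays was not tested. The genotype term of the limma fit uses both time points and its time term both genotypes as the 2 arrays of a level. Other steps used Python 3.11.15. Every star strand detected on at least 1 array is named, and undetected ones where the guide was among the 10 brightest or had no entry. The members and lists were chosen with earlier results of these data known. Arm names were assigned by hand, and sequences are from RefSeq (GRCm38.p6).

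Alternatives were other scalings (none, percentile over all mouse miRNAs, median, quantile with a floor of 1, spike-ins), normexp with an offset of 50, total gene signal, the deposited log2 table, kept outlier spots, other detection calls and floors, a threshold of 1.5-fold, the brightest probe, and leaving out arrays. Subtraction of the negative control mean (lowest value 1), the comparison of total gene signals with own probes, and the ratios of single probes were chosen after seeing the data.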

Additional observations from a re-analysis of the deposited data

How the results depend on the processing

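The limits are those of 4 arrays without replicates and of signals close to background. Ratios of 2 arrays carry no test, and the spot SD leaves out animals, RNA preparation and labelling. No paired analysis was possible because fewer than 2 replicate numbers are shared, all arrays being numbered 1. The limma fit with both factors averages the genotype difference over the 2 time points and gives no test within either. Unless stated, the cause of a change was not tested.

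At ZT2, the number of star strands at least 2-fold lower in the mutant went from 1 to 0 with quantile normalization, normexp, the deposited log2 table, the negative control mean subtracted, the stricter detection call, only miRNAs detected on both arrays, and the negative control floor, and to 2 at 1.5-fold. Over all miRNAs the 16 lower at ZT2 became 5, 1, 9, 18, 2, 4 and 10 in this order, and 34 at 1.5-fold. At ZT14 the 2 lower became 0 without scaling, with the percentile over all mouse miRNAs, quantile, spike-in scaling, normexp and the stricter call, 1 with the deposited table and with only miRNAs detected on both arrays, and 4 at 1.5-fold. Over all miRNAs the 21 lower at ZT14 became 18, 18, 18, 17, 6 and 9 in this order. They became 20 with the deposited table, 8 with only miRNAs detected on both arrays and 28 at 1.5-fold. The 0 higher at ZT14 became 1 without scaling, with the percentile over all mouse miRNAs, with quantile and at 1.5-fold, 4 with spike-in scaling, 4 with the negative controls subtracted and 5 with the deposited table. Over all miRNAs the 0 higher at ZT14 became 16 without scaling, 11 with the percentile over all mouse miRNAs, 9 with quantile and 6 at 1.5-fold. They became 32 with spike-in scaling, 17 with the negative controls subtracted and 29 with the deposited table.

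In WT over time, 0 lower became 3 without scaling and with spike-in scaling, 5 with the negative controls subtracted and 2 at 1.5-fold. Over all miRNAs the 13 lower became 59 without scaling, 76 with spike-in scaling, 59 with the negative controls subtracted and 41 at 1.5-fold. In the mutant, 1 lower became 0 with the percentile over all mouse miRNAs, median, quantile, spike-in scaling, normexp, the deposited table and the stricter call, and 3 with the negative controls subtracted. Of all miRNAs the 22 lower became 17, 21, 19, 21, 5, 0 and 11 in this order, and 30 with the negative controls subtracted. With the deposited table, 11 star strands were higher at ZT14 in WT and 12 in the mutant (of all miRNAs, 138 and 142), and miR-877* in the mutant turned to 4.76, because its columns carry different offsets at the 2 time points by construction.

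The total gene signal, to which other entries were added as described, gave 4 lower and 4 higher at ZT2. At ZT14 it gave 2 lower, miR-140* and miR-483* (not miR-877*), and 3 higher. Over time it gave 6 lower and 3 higher in WT, and 2 lower and 2 higher in the mutant. It turned miR-877* to 0.98 at ZT14 and to 1.37 over time in the mutant. Of all miRNAs, 33 were lower and 17 higher at ZT2, and 23 lower and 22 higher at ZT14. Over time 49 were lower and 14 higher in WT, and 26 lower and 13 higher in the mutant.

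Detected star strands with the stricter call numbered 7, 4, 3 and 4 on WT ZT2, mutant ZT2, WT ZT14 and mutant ZT14. Of all 111 star strands, called detected or not, 16, 15, 14 and 15 had signals at or above the negative control mean. Among these, 15, 14, 11 and 12 were called detected. The share of all mouse entries above that mean was not counted. The median log2 star over guide ratio of the 7 pairs, -3.99, -3.93, -3.93 and -3.65 in the same order, became -3.30, -3.19, -2.92 and -2.93 with normexp, -3.37, -3.45, 0.011 and -0.42 with the total gene signal, and -4.38, -4.29, -4.24 and -4.01 with the brightest probe. With the negative controls subtracted it was -4.46 on WT ZT14 and -4.32 on mutant ZT14.

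With an array left out, the limma difference of miR-877* ran from log2 -1.42 to -0.26 for genotype and from -1.29 to 0.14 for time. Each such fit leaves 1 array in an arm and 1 factor in the model, so only the size is given. With all 4 arrays, none of the 9 star strands was called without scaling, with the percentile over all mouse miRNAs, the median or normexp. Nor was any called with genotype or time alone in the fit. Of all 123 miRNAs, normexp called 6 for genotype and 3 for time, and no scaling called 0 and 5. The percentile over all mouse miRNAs, the median and the fits of 1 factor to all 4 arrays called 0 for either term.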
